A study of Saccharomyces cerevisiae with 7 samples.

Results

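The hexose transporter genes HXT1 to HXT7, the glucose sensor genes SNF3 and RGT2 and the co-repressor gene MTH1 of the budding yeast Saccharomyces cerevisiae were followed across 7 strains. The genes were chosen by symbol, 10 of the 6225 systematic names measured on the array, and each was represented by 1 probe printed in 7 spots. All strains were BY4741, a haploid laboratory strain that lacks HIS3, LEU2, MET15 and URA3, and all carried the multicopy plasmid pTOW40836, whose markers are URA3 and a weak allele of LEU2. They were grown to log phase in synthetic medium without uracil (SC-Ura). Of the strains, 6 expressed a GFP from the plasmid: NES-GFP, with a nuclear export signal, from the HXT7 promoter; MTS-GFP, with a mitochondrial targeting signal, SS-GFP, with a secretory signal, and GFPm3, a GFP mutated so that it misfolds, each from the PYK1 promoter; and GFP-Deg, with a degradation signal, and unmodified GFP from the TDH3 promoter. The other strain carried the empty vector. Each culture gave 1 array of its total RNA. There is thus no spread between replicates to test against and no p-value is printed, and a difference between strains that carry different promoters belongs to promoter and protein together.

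In yeast, glucose enters the cell by facilitated diffusion through the Hxt proteins. Hxt1 and Hxt3 have low affinity for glucose and serve cells in abundant sugar, Hxt2, Hxt4, Hxt6 and Hxt7 have higher affinity and are made when glucose is scarce, and Hxt5 is made by slowly growing or starved cells. The membrane sensors Snf3 and Rgt2 resemble transporters but pass a signal in place of sugar: with glucose bound, they lead to the destruction of Mth1 and Std1, without which the repressor Rgt1 leaves the HXT promoters. A separate route through the kinase Snf1 and the repressor Mig1 shuts off the high-affinity transporters, the MTH1 gene and the genes for other carbon sources while glucose is plentiful.

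Levels are given as relative signal, the processed signal of a probe divided by the 75th percentile of all genes on the same array, which ranged between 3719 and 5626 intensity units. Between 97.0% and 98.9% of the yeast spots of an array were well above background, and the 10 genes were so in 7 of 7 spots on every array, with 0 saturated. The SD between the 7 spots of a probe on an array was at most 0.11 on the log2 scale for these genes. That SD covers the measurement on the array only, not the labelling or the culture. The arrays lay on 2 slides scanned on different days, 4 on the first (NES-GFP, MTS-GFP, GFPm3 and empty vector) and 3 on the second (SS-GFP, GFP-Deg and GFP), so for a strain on the second slide the difference from the empty vector cannot be told apart from a difference between slides. HIS3 and MET15, deleted in the host, were well above background on 0 arrays. A signal is an average over a culture, in which fewer cells that express a gene and less RNA per cell cannot be told apart.

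MTS-GFP cells had the highest relative signal of the 7 strains for 8 of the 10 genes, the exceptions being HXT1 and RGT2. Set against the average log2 value of all 7 arrays, 5 of the 10 genes were over 2-fold higher in MTS-GFP (HXT2, HXT4, HXT5, HXT6 and HXT7), against 2.76% of all genes. In GFPm3, 3 of the 10 were over 2-fold lower (HXT4, HXT6 and HXT7), against 1.17% of all genes. HXT5 was over 2-fold lower in GFP-Deg, where 1.22% of all genes were, and in GFP, where 0.916% were. HXT2 was over 2-fold lower in the empty vector, where 1.46% were. No member was past 2-fold in NES-GFP or SS-GFP with this scaling and average, where 1.83% and 1.43% of all genes were past it in either direction. In at least 1 array, 5 of the 10 genes were past 2-fold, against 8.96% of all genes, and HXT1, HXT3, SNF3, RGT2 and MTH1 were not, although MTH1 passed it in MTS-GFP when the arrays were left unscaled.

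**Figure D1:**
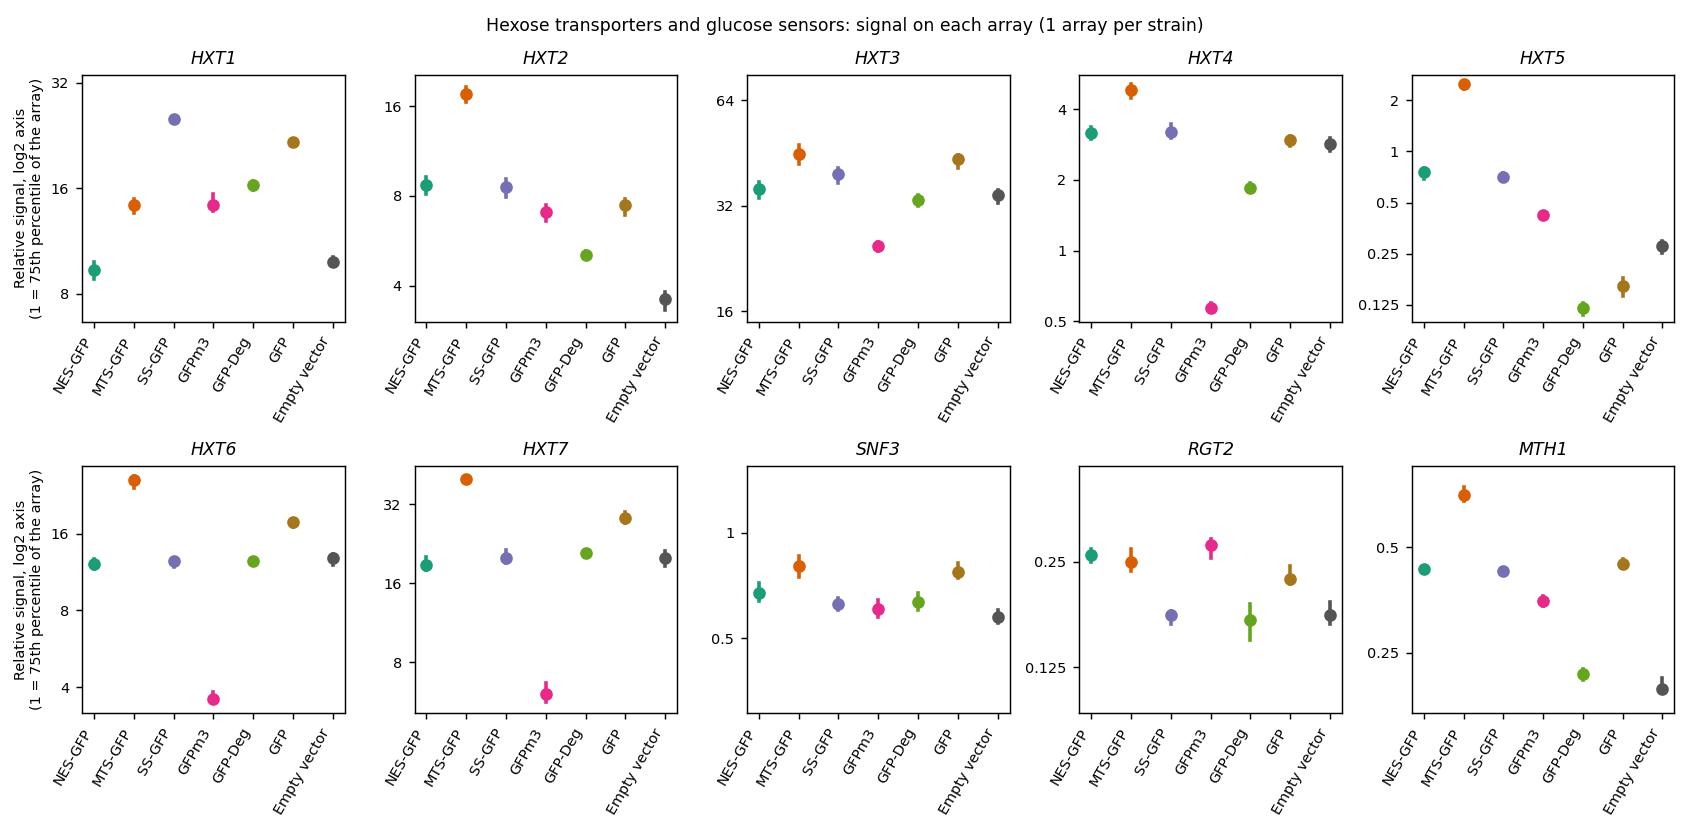
Relative signal of each gene (log2 axis, 1 is the 75th percentile of all genes on the array) in the 7 strains, 1 array each; dots are the mean of 7 spots and bars run between the lowest and the highest spot. HXT4, HXT6 and HXT7 lie lowest in GFPm3 (0.570, 3.60 and 6.02), and HXT5 spans 0.119 in GFP-Deg to 2.48 in MTS-GFP.

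HXT7, which encodes a high-affinity transporter and lends its promoter to the NES-GFP plasmid, had a relative signal of 18.7 in NES-GFP, 39.8 in MTS-GFP, 20.0 in SS-GFP, 6.02 in GFPm3, 20.8 in GFP-Deg and 28.3 in GFP, against 20.0 in the empty vector. By relative signal it was thus highest in MTS-GFP, next highest in GFP and lowest in GFPm3. The other 4 strains lay close together, and their spots overlapped with their neighbours in the order (GFP-Deg, empty vector, SS-GFP and NES-GFP). Under the 4 other scalings tried, NES-GFP left this group, at 0.26 to 0.35 above the empty vector on the log2 scale. GFP then lay at 0.25 to 0.32 and was no longer clearly next highest, while MTS-GFP stayed highest and GFPm3 lowest. Across the 7 strains the relative signal of HXT7 spanned 6.61-fold. Such a range was reached or passed by 1.97% of the 5978 genes that cleared the background in every strain.

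The HXT7 signal of NES-GFP cells, which carry further copies of its promoter, differed from the empty vector by -0.09 on the log2 scale with the 75th percentile scaling, but by 0.26 to 0.35 under the 4 other scalings tried. In MTS-GFP the difference from the empty vector was 0.995, a fold of 1.99, and 1.11 to 1.56 under the other scalings, each past 2-fold. GFPm3 was 3.32-fold below the empty vector (-1.73). The probe carries no stated sequence in the files, so whether it can also bind RNA from the plasmid was not tested.

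HXT6, which lies next to HXT7 on chromosome IV and encodes a nearly identical transporter, gave 12.2 in NES-GFP, 26.0 in MTS-GFP, 12.5 in SS-GFP, 3.60 in GFPm3, 12.5 in GFP-Deg and 17.8 in GFP, against 12.8 in the empty vector. Its deviation from the mean of the 7 arrays differed from that of HXT7 by 0.07 or less in size on every array. Because the genes are near copies, the probes may each read both RNAs, and how far the values are separate measurements was not tested.

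HXT4, a transporter of high to intermediate affinity on chromosome VIII, had 3.18 in NES-GFP, 4.83 in MTS-GFP, 3.20 in SS-GFP, 0.570 in GFPm3, 1.86 in GFP-Deg and 2.94 in GFP, against 2.83 in the empty vector. The GFPm3 value was 4.97-fold below the empty vector (-2.31 on the log2 scale) and 8.46-fold below MTS-GFP. GFP-Deg was the next lowest, and the spots of SS-GFP, NES-GFP, GFP and the empty vector overlapped in a row. HXT4, HXT6 and HXT7 thus shared their extremes, MTS-GFP at the top and GFPm3 at the bottom. Over the 7 arrays the log2 values of HXT4 and HXT7 correlated with r = 0.93, and with r = 0.65 over the 6 arrays without GFPm3.

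HXT2, the other high-affinity transporter, had 8.70 in NES-GFP, 17.5 in MTS-GFP, 8.57 in SS-GFP, 7.06 in GFPm3, 5.06 in GFP-Deg and 7.46 in GFP, against 3.63 in the empty vector. The empty vector lay lowest, below every spot of the 6 GFP strains, and MTS-GFP was 4.84-fold above it (2.28 on the log2 scale). GFPm3, the lowest strain for HXT4, HXT6 and HXT7, lay close to GFP here. HXT2 correlated with HXT7 with r = 0.37 over the 7 arrays, 0.71 without GFPm3 and -0.09 without MTS-GFP. With HXT4 the values were 0.36, 0.79 and 0.03, so the likeness depended on which array was left out. NES-GFP was 2.40-fold and SS-GFP 2.36-fold above the empty vector. GFP at 2.06-fold and GFPm3 at 1.95-fold lay on either side of the threshold, and under each of the 4 other scalings GFP lay below it (0.79 to 0.98) and GFPm3 above it (1.07 to 1.23).

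HXT5, whose product is a transporter of moderate affinity made in slow growth, was the most variable of the 10 genes, with a range of 20.7-fold. Such a range was reached or passed by 0.268% of the 5978 genes that cleared the background in every strain. The relative signal of HXT5 was 0.759 in NES-GFP, 2.48 in MTS-GFP, 0.711 in SS-GFP, 0.424 in GFPm3, 0.119 in GFP-Deg and 0.161 in GFP, against 0.279 in the empty vector. MTS-GFP was 8.88-fold above the empty vector, NES-GFP 2.72-fold and SS-GFP 2.55-fold. GFP-Deg was 2.33-fold below it (-1.22 on the log2 scale), and GFP gave -0.79. Both strains with the TDH3 promoter had less HXT5 signal than the empty vector. The 3 strains with the PYK1 promoter and the strain with the HXT7 promoter had more. Both TDH3 strains and SS-GFP lay on the second slide, and the empty vector on the first. For these strains the difference from the empty vector cannot be told apart from a difference between slides. Only the spots of NES-GFP and SS-GFP overlapped between neighbours in the order.

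HXT1, the low-affinity transporter of cells in abundant glucose, had 9.33 in NES-GFP, 14.3 in MTS-GFP, 25.1 in SS-GFP, 14.4 in GFPm3, 16.3 in GFP-Deg and 21.6 in GFP, against 9.83 in the empty vector. It was highest in SS-GFP, 2.56-fold above the empty vector (1.35 on the log2 scale), and lowest in NES-GFP and the empty vector, whose spots overlapped. NES-GFP differed from the empty vector by -0.07, but by 0.21 to 0.32 under the other scalings. GFP lay 1.14 above the empty vector and fell short of 2-fold under the other scalings (0.89 to 0.97).

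HXT1 was also the only member whose values did not overlap between slides, all 3 arrays of the second slide lying above all 4 of the first by the 75th percentile scaling. Of all genes, 27.9% did not overlap between slides in either direction and 15.5% lay higher throughout on the second slide, and for HXT1 the slides overlapped under each of the 4 other scalings. Against the other members over the 7 arrays, HXT1 gave correlations between -0.30 and 0.30.

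HXT3, the other low-affinity transporter and the neighbour of HXT6 and HXT7 on chromosome IV, was steadier than HXT1 and nearer in pattern to HXT7 (r = 0.95 over the 7 arrays, 0.83 without GFPm3). It had 35.8 in NES-GFP, 45.0 in MTS-GFP, 39.3 in SS-GFP, 24.6 in GFPm3, 33.2 in GFP-Deg and 43.5 in GFP, against 34.4 in the empty vector. Its range was 1.83-fold, which 38.7% of the 5978 genes that cleared the background in every strain reached. The spots of every strain but GFPm3 overlapped with a neighbour. GFPm3 stood lowest here too, at -0.49 from the empty vector with GFP-Deg at -0.05, but under the other scalings the values were nearly alike, -0.30 to -0.21 in GFPm3 and -0.29 to -0.20 in GFP-Deg.

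The sensor genes varied little. SNF3, the sensor of low glucose, had 0.675 in NES-GFP, 0.804 in MTS-GFP, 0.626 in SS-GFP, 0.607 in GFPm3, 0.634 in GFP-Deg and 0.771 in GFP, against 0.573 in the empty vector. The range was 1.40-fold, a range that 77.2% of the 5978 genes that cleared the background in every strain reached or passed. RGT2, the sensor of high glucose, had 0.262 in NES-GFP, 0.250 in MTS-GFP, 0.176 in SS-GFP, 0.279 in GFPm3, 0.171 in GFP-Deg and 0.224 in GFP, against 0.176 in the empty vector. It spanned 1.63-fold, which 52.7% of those genes reached, and most neighbours in its order overlapped. RGT2 was the 1 member with its highest value in GFPm3, although the spots of GFPm3 and NES-GFP overlapped and NES-GFP was the higher with loess normalization.

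MTH1, the co-repressor that acts with Rgt1 and is removed when glucose is sensed, varied more than the sensors. It had 0.433 in NES-GFP, 0.704 in MTS-GFP, 0.428 in SS-GFP, 0.352 in GFPm3, 0.218 in GFP-Deg and 0.449 in GFP, against 0.198 in the empty vector. MTS-GFP was 3.56-fold above the empty vector, GFP 2.27-fold, NES-GFP 2.19-fold and SS-GFP 2.17-fold. GFP-Deg and the empty vector, the lowest, overlapped in their spots. The order of strains resembled that of HXT2, with r = 0.96 over the 7 arrays, 0.96 without GFPm3 and 0.95 without MTS-GFP.

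Set against the empty vector, 7 of the 10 genes were past 2-fold in at least 1 GFP strain, where 16.9% of all genes were. The higher ones were HXT2, HXT5 and MTH1 in NES-GFP (3 of 10, with 3.31% of all genes), HXT2, HXT5, HXT6 and MTH1 in MTS-GFP (4 of 10, with 5.77%), HXT1, HXT2, HXT5 and MTH1 in SS-GFP (4 of 10, with 3.36%) and HXT1, HXT2 and MTH1 in GFP (3 of 10, with 4.48%). The lower ones were HXT4, HXT6 and HXT7 in GFPm3 (3 of 10, with 1.72% of all genes) and HXT5 in GFP-Deg (1 of 10, with 1.51%). These comparisons share the empty vector array, so a value particular to that array enters all of them. The plasmid markers were highest in the empty vector, where URA3 deviated from the mean of the 7 arrays by 1.88 and LEU2 by 1.13. The number of plasmids per cell can thus differ too, and its part in the differences from the empty vector was not tested. Members above the empty vector in all 6 GFP strains were HXT2, SNF3 and MTH1, 3 of 10, against 10.7% of all genes, while HXT1 joined them under each of the 4 other scalings and SNF3 and MTH1 were not among them when the arrays were left unscaled. The spots of SNF3 in GFPm3 overlapped those of the empty vector.

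**Figure D2:**
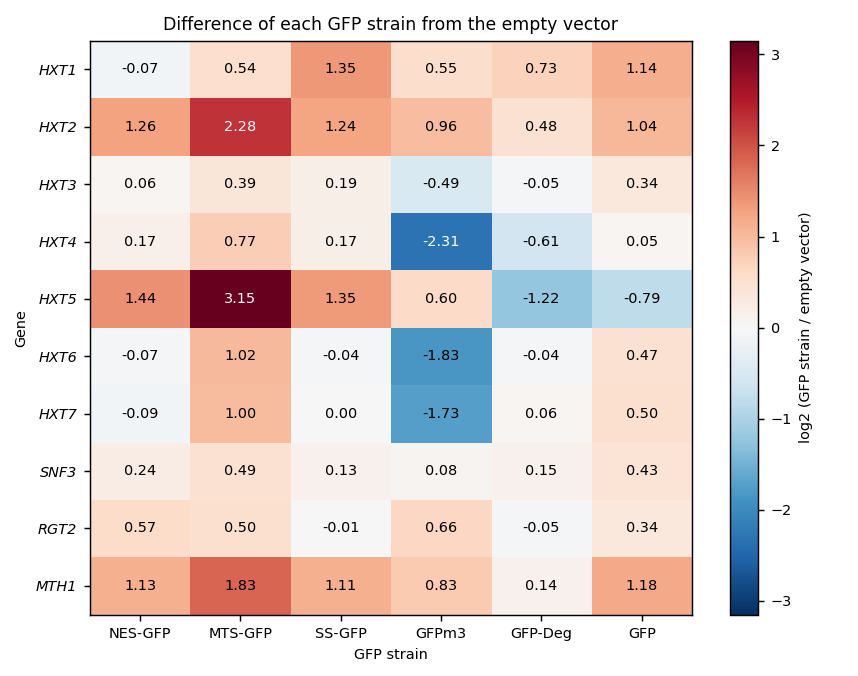
Log2 difference of each GFP strain (columns) from the empty vector (rows are genes; red is higher and blue lower in the GFP strain), 1 array per strain. The extremes are HXT5 in MTS-GFP (3.15) and HXT4 in GFPm3 (-2.31).

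Over the 10 genes, the median difference from the empty vector was 0.88 in MTS-GFP, where all 10 were higher and the median of all genes was -0.03. It was 0.45 in GFP (all genes 0.03), 0.32 in GFPm3 (all genes 0.06), 0.20 in NES-GFP (all genes -0.02), 0.18 in SS-GFP (all genes -0.01) and 0.01 in GFP-Deg (all genes 0.05). The GFPm3 median hides opposite values, since HXT2 at 0.96 and MTH1 at 0.83 stood beside HXT4 at -2.31.

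Between strains that share a promoter and a slide, the GFP is the difference in the design, although the number of plasmids per cell can differ too. MTS-GFP and GFPm3 are both expressed from the PYK1 promoter, and 5 of the 10 genes were over 2-fold higher in MTS-GFP than in GFPm3, against 4.58% of all genes. The differences were 3.08 for HXT4, 2.85 for HXT6, 2.73 for HXT7, 2.55 for HXT5 and 1.31 for HXT2 on the log2 scale. MTH1 lay at the threshold with 1.0, HXT3 was 0.87 higher, and HXT1 differed by -0.01. The HXT7 difference was a fold of 6.61 and lay between 2.57 and 3.11 on the log2 scale under the other scalings, while HXT1 changed sign (-0.16 to 0.36) and HXT3 ran on both sides of 2-fold (0.72 to 1.33). The plasmid marker URA3 deviated by -1.28 in MTS-GFP and by -1.48 in GFPm3. The other marker, LEU2, had the opposite order, with -1.05 in MTS-GFP and -0.56 in GFPm3. The part of plasmid number in these differences was not tested.

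GFP-Deg and GFP, both from the TDH3 promoter, differed less but in 1 direction. All 10 genes were lower in GFP-Deg than in GFP, where 50.3% of all genes were lower, and this held for each of the 10 under the other scalings. The median difference was -0.44 on the log2 scale, against -0.00 for all genes. MTH1 was past 2-fold (-1.04, 1 of 10, with 0.53% of all genes lower by that much), and HXT4 (-0.67), HXT2 (-0.56) and HXT6 (-0.51) came next. MTH1 lay between -1.06 and -0.94 under the other scalings. HXT5, low in both strains, differed by -0.43. URA3 deviated from its mean by 0.03 in GFP-Deg and by 0.97 in GFP, and LEU2 by -0.52 and 0.67. The part of plasmid number in the differences between GFP-Deg and GFP was not tested.

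**Figure D3:**
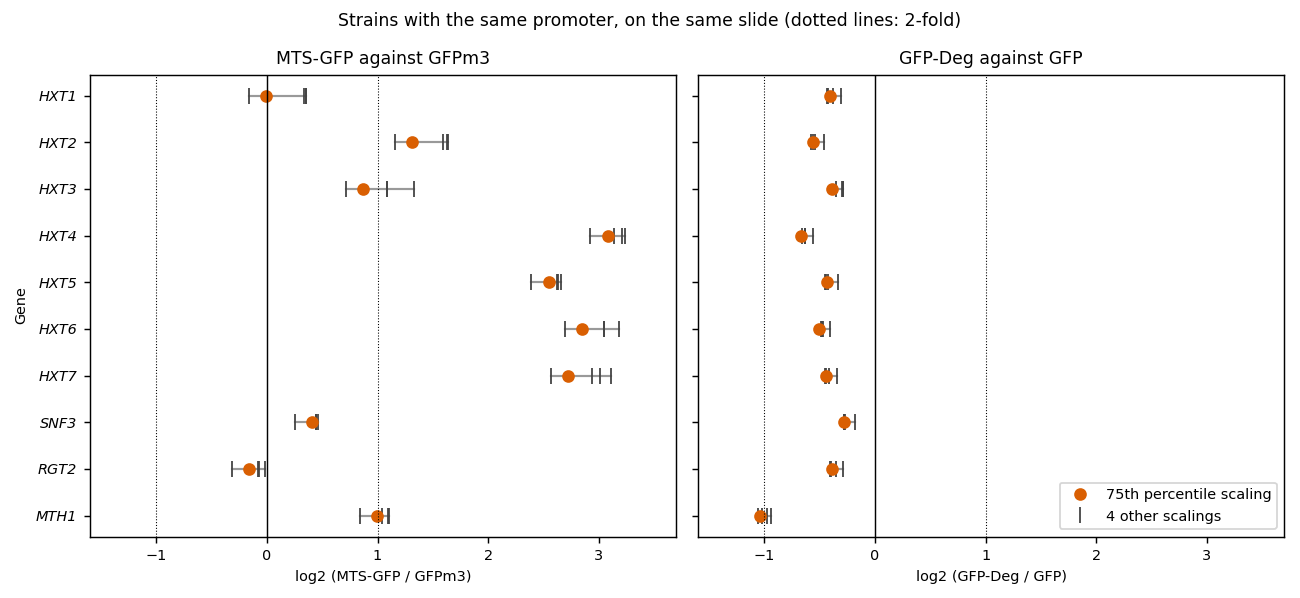
Log2 difference between strains with the same promoter on the same slide, MTS-GFP against GFPm3 and GFP-Deg against GFP, for each gene; circles are the 75th percentile scaling, ticks the 4 other scalings, and dotted lines mark 2-fold. HXT4, HXT5, HXT6 and HXT7 lie beyond 2.3 in the first pair, and all 10 genes lie left of zero in the second.

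SS-GFP shared the slide of GFP but not its promoter. HXT5 was 4.42-fold higher in SS-GFP than in GFP (2.14 on the log2 scale), the only member past 2-fold, with 0.948% of all genes higher by that much. HXT6 and HXT7 were lower, by -0.51 and -0.50, and HXT1 was 0.22 higher. MTS-GFP and NES-GFP, on the first slide and from different promoters, differed by over 2-fold in 4 of the 10 genes, all higher in MTS-GFP (HXT5 by 1.71, HXT6 by 1.09, HXT7 by 1.09 and HXT2 by 1.01), against 1.14% of all genes. Of these, HXT5 was past 2-fold under each of the other scalings, while HXT2, HXT6 and HXT7 reached down to 0.78, 0.86 and 0.85. RGT2 was the 1 gene of the 10 that was not higher in MTS-GFP than in NES-GFP (-0.07).

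Other genes of glucose uptake and response were read from lists by function. Among 10 further hexose transporters (HXT8 to HXT11, HXT13 to HXT17 and GAL2), 7 were well above background on all 7 arrays. In GFP-Deg, 4 of the 10 were over 2-fold above the mean of the 7 arrays, where 3.0% of all genes were, but only HXT9, a transporter gene linked to multidrug resistance, was well above background on all arrays. Its relative signal was 0.140 in NES-GFP, 0.142 in MTS-GFP, 0.141 in SS-GFP, 0.201 in GFPm3, 0.687 in GFP-Deg and 0.221 in GFP, against 0.181 in the empty vector. The others were HXT11, HXT13 and HXT14, well above background on 3, 1 and 4 arrays, so no fold is given for them. The list's median deviation in GFP-Deg was 0.94 with the 75th percentile scaling and 0.18 to 0.75 with the others, where 1 to 3 of the 10 were past 2-fold. It includes the dim probes. HIS3 and MET15, deleted in the host and not well above background, also deviated upward in GFP-Deg (1.27 and 0.59). In that array, HXT9, HXT16, HXT15 and HXT17 deviated by 1.74, 0.95, 0.93 and 0.87. The other genes of the list well above background on all arrays, HXT10, GAL2 and HXT8, deviated by 0.67, 0.37 and -0.06. The part of dim signal in the median was not tested further. The 10 genes this account is about had a median of -0.23 in the same array, and all genes one of 0.04.

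The list of the sensing route downstream of the sensors had 5 genes: the repressor gene RGT1, the co-repressor gene STD1, the ubiquitin ligase gene GRR1 and the casein kinase genes YCK1 and YCK2. Of these, 0 of 5 were past 2-fold on any array, where 8.96% of all genes were past it on at least 1, and their median deviations lay between -0.07 and 0.14. STD1, the paralog of MTH1, had 0.418 in NES-GFP, 0.475 in MTS-GFP, 0.388 in SS-GFP, 0.387 in GFPm3, 0.388 in GFP-Deg and 0.468 in GFP, against 0.332 in the empty vector. It is named here for its kinship with MTH1, after its values were seen. It was lowest in the empty vector under every scaling, while its highest strain changed with the scaling.

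Of the 12 genes of the glucose repression route (the Snf1 kinase subunits, the phosphatase Glc7 with Reg1, the Mig repressors and the co-repressor Cyc8-Tup1), 0 were past 2-fold from the mean on any array, against 8.96% of all genes. MIG2, a repressor gene that is itself induced by glucose and is also named after its values were seen, came nearest, at -0.98 in the empty vector, and passed 2-fold with loess (-1.04) and without scaling (-1.03). Its relative signal was 1.97 in NES-GFP, 2.70 in MTS-GFP, 2.17 in SS-GFP, 2.12 in GFPm3, 1.31 in GFP-Deg and 2.52 in GFP, against 0.941 in the empty vector. As for HXT2 and MTH1, the empty vector and GFP-Deg were the lowest.

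Among the 3 genes for sugar kinases, which phosphorylate the incoming sugar, HXK1 had a relative signal of 13.2 in NES-GFP, 21.9 in MTS-GFP, 9.37 in SS-GFP, 5.0 in GFPm3, 5.81 in GFP-Deg and 12.5 in GFP, against 8.13 in the empty vector. It deviated by 1.18 in MTS-GFP and by -0.95 in GFPm3. GLK1, the glucokinase gene, was lowest in GFPm3 with 3.82, a deviation of -1.23, and highest in MTS-GFP with 13.8, against 9.41 in the empty vector. HXK2, the hexokinase of cells in abundant glucose, stayed within 0.54 of its mean. Like HXT4, HXT6 and HXT7, both were highest in MTS-GFP and GLK1 was lowest in GFPm3 under every scaling, while HXK1 was lowest in GFP-Deg with quantile or loess normalization or without scaling.

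Of 9 genes that glucose represses, 3 were over 2-fold above the mean in MTS-GFP, with a median of 0.81 and 9 of 9 above zero (all genes -0.05, with 2.76% over 2-fold higher). They were MLS1, the malate synthase gene of the glyoxylate cycle (1.77), JEN1, the lactate transporter gene (1.5), and ADR1, an activator of genes for ethanol and fatty acid use (1.31). MLS1 was also high in NES-GFP (1.75) and low in GFPm3 (-1.22), and ADR1 was low in the empty vector (-1.07), these last values being past 2-fold under 3 of the 4 other scalings. ADH2, for the alcohol dehydrogenase of ethanol use, deviated by 1.03 in GFP-Deg and came below 2-fold under 3 of the 4 other scalings. SUC2, the invertase gene and a common readout of glucose repression, had 1.08 in NES-GFP, 1.08 in MTS-GFP, 1.04 in SS-GFP, 0.755 in GFPm3, 1.12 in GFP-Deg and 1.13 in GFP, against 1.04 in the empty vector. SUC2 is named after its values were seen, as a gene of the list that was level in every strain but GFPm3.

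**Figure D4:**
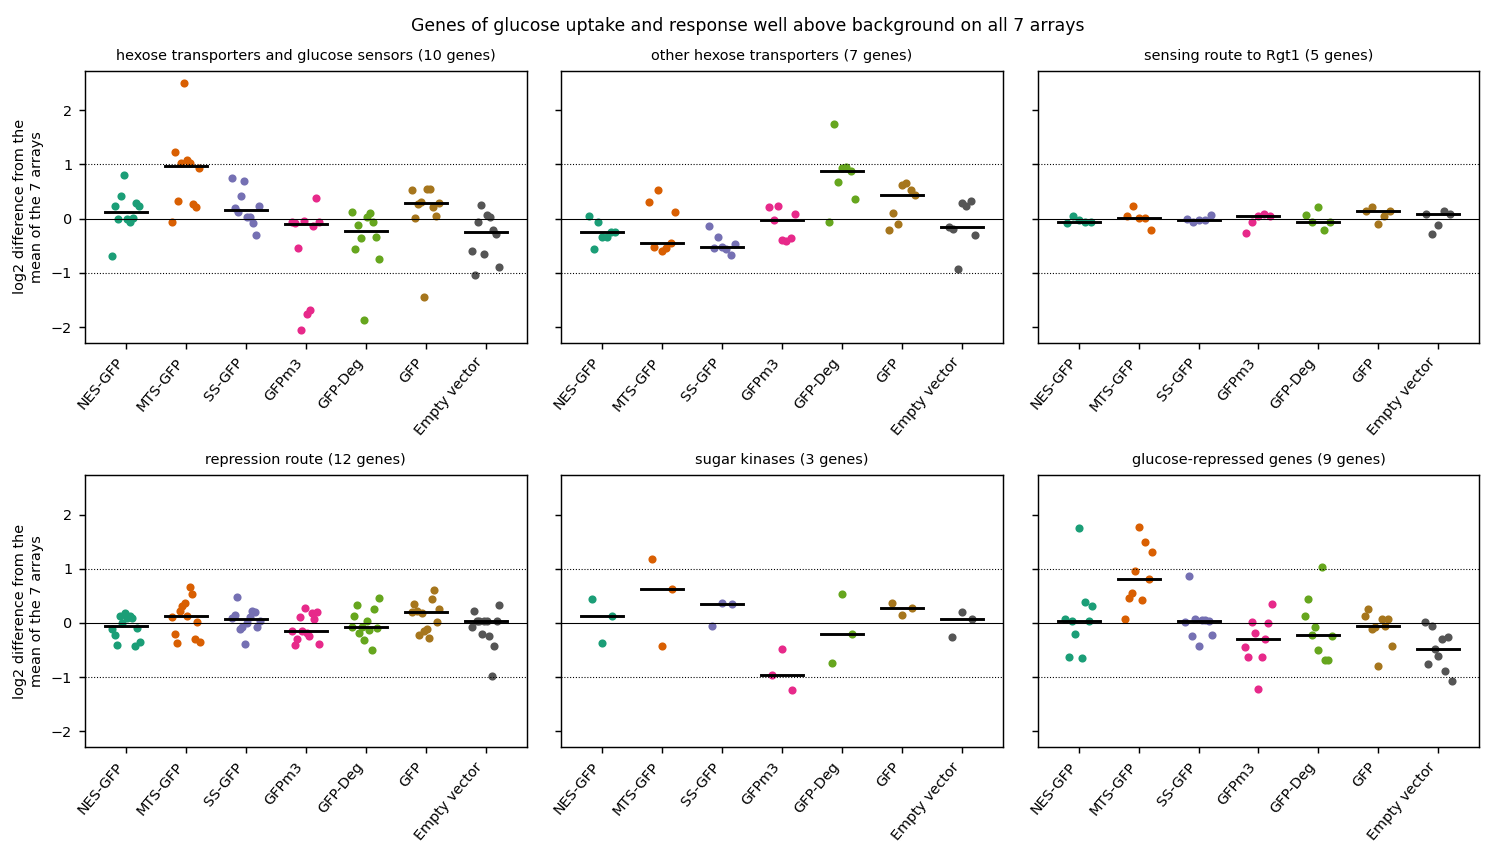
Log2 difference from the mean of the 7 arrays for the genes of each list that were well above background on all 7 arrays (points are genes, bars the medians, dotted lines 2-fold). The 10 transporter and sensor genes have their highest median in MTS-GFP (0.98), as do the 9 glucose-repressed genes (0.81), while the genes of the sensing route stay near zero in every strain.

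Apart from the 10 genes themselves, of which HXT6 was closest to HXT7, the genes with the closest pattern to a transporter were found by Pearson correlation over the 7 arrays among 2483 genes with an SD of at least 0.3, as a description of 1 array per strain. For HXT7 the closest were PEP4, the vacuolar proteinase gene (r = 0.97), GPM2, a phosphoglycerate mutase paralog (0.96), and YBR287W (0.96), all lowest in GFPm3. The closest to HXT5 were AMS1, for vacuolar mannosidase (0.98), YPS1, for a cell surface protease (0.98), and GSC2, for a glucan synthase subunit of the cell wall (0.97), and AMS1 itself ran between -1.05 in GFP-Deg and 1.28 in MTS-GFP. HXT2 was matched by ZIP2, a meiosis gene (0.98), CYB2, for the lactate dehydrogenase of mitochondria (0.98), and YNR014W (0.98), each lowest in the empty vector. For HXT1 the correlations were lower, with GAT1, an activator of nitrogen genes (0.94), YPK2, a protein kinase gene (0.92), and YPR195C (0.92).

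**Figure D5:**
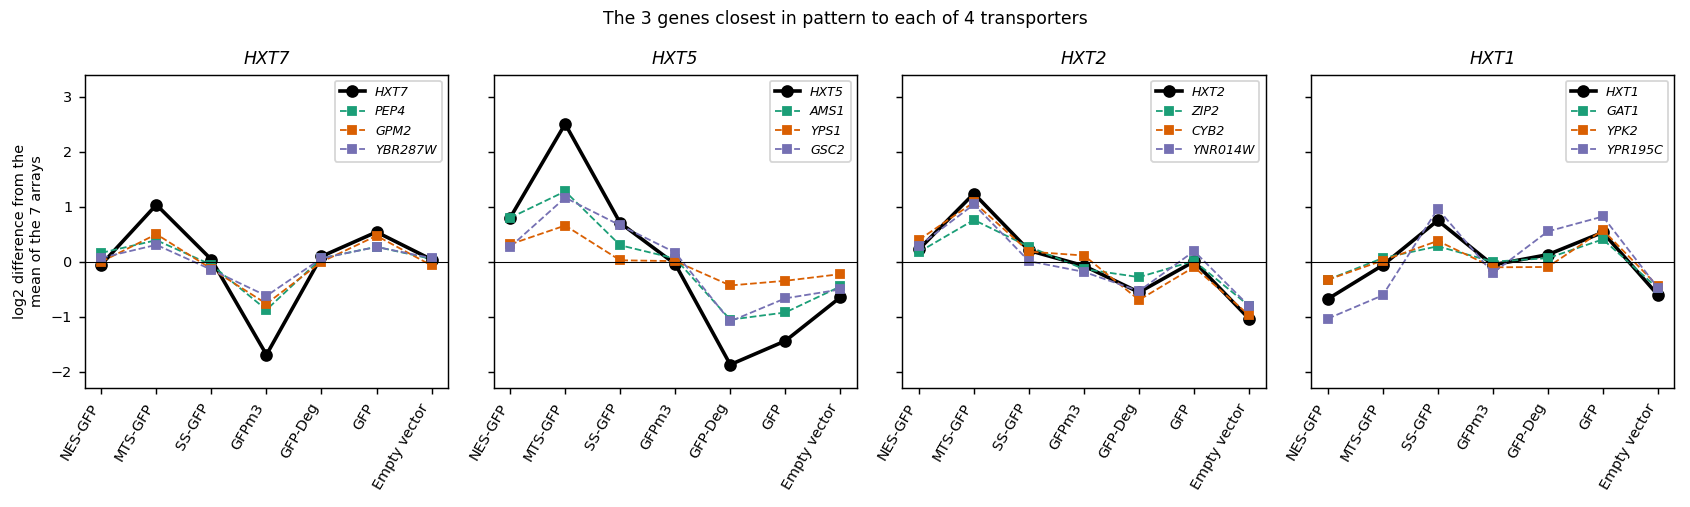
Log2 difference from the mean of the 7 arrays for HXT7, HXT5, HXT2 and HXT1 (black) and for the 3 genes closest in pattern to each (dashed), 1 array per strain. The low point of HXT7 and its companions is GFPm3, that of HXT5 and AMS1 is GFP-Deg, and that of HXT2 and its companions is the empty vector.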

How the data were processed

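Total RNA extracted with hot phenol from log-phase cells was labelled with Cy3 and hybridized to Agilent yeast oligo arrays, 1 per strain. The authors scanned the arrays and deposited, for each spot, an intensity processed by Feature Extraction 10.10.1.1, which had subtracted the background but had not normalized between arrays. The methods name the agilp package, and its normalization step is not given in the sources used here. The table of the whole series held the same intensity for every spot. Here, control spots and outlier spots were left out, each array was scaled by its 75th percentile, log2 was taken and the 7 spots of a probe were averaged, with R 4.3.3, Python 3.11.15, numpy 2.4.6 and pandas 2.3.3.

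Deviations are log2 values minus the mean of the 7 arrays, and past 2-fold means a log2 difference over 1 in size. Well above background was required of at least 4 spots of a gene per array. The share of genes that reached a member's range over the 7 arrays was taken among the 5978 that met this on every array. Of 6225 names, 5737 matched a locus tag of the RefSeq gene table, which was used for symbols and for which genes are neighbours. Genes named are the 10 members and up to 4 genes past 2-fold per list. The 3 closest patterns outside the members are named for each of 4 transporters, and a few genes, as the text says, after their values were seen. Other genes not past 2-fold, such as HXK2, are named as members of their lists. The members and lists were chosen with earlier results of these data known. With 1 array per strain no test was run. The steps were tested on simulated arrays. Alternatives were quantile, loess and normexp (offset 50) normalization with limma 3.58.1, no scaling, a filter on dim probes, the median of spots and other averages. Strains and replicates follow the labels.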

Additional observations from a re-analysis of the deposited data

How the results depend on the processing

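With 1 array per strain, spot SD is the only error, and it leaves out culture and labelling. No paired analysis was possible because each strain had 1 array. A value counted as moved when it shifted by more than the pooled spot SD, 0.11 on the log2 scale. Of 978 alternative values for 128 member values, 340 counted as moved. HXT7 in NES-GFP differed from the empty vector by -0.09, against 0.35 with quantile normalization, 0.34 with loess, 0.35 with normexp and 0.26 without scaling. For HXT7 in MTS-GFP the difference from the empty vector was 0.995, against 1.40, 1.56, 1.42 and 1.11 under the same settings, each past 2-fold. HXT7 in MTS-GFP differed from GFPm3 by 2.73, against 2.94, 3.11, 3.01 and 2.57. The cause was not tested. The other main results kept within 1.5 times the count or the pooled SD: the members past 2-fold from the mean numbered 5 or 6 across scalings and averages (5 as reported), 7 at 1.5-fold and 4 at 3-fold, those past 2-fold from the empty vector 6 to 8 (7 as reported), and HXT5 in GFP-Deg differed from GFP by -0.45 to -0.33. Of 70 deviations of members from the mean, 11 were past 2-fold, and the same 11 were so under quantile, loess and normexp normalization and without scaling, which added HXT5 in NES-GFP and MTH1 in MTS-GFP. When deviations were taken from the median array, HXT4 and HXT7 in MTS-GFP were no longer past it and MTH1 in the empty vector was, as it was against the mean of the GFP arrays. When taken from the slide mean, HXT5 was past it in SS-GFP and the empty vector and not in GFP. Of 60 differences from the empty vector, 18 were past 2-fold, and 16 of them remained so under quantile, loess and normexp normalization and 15 without scaling. Those lost were HXT1 and HXT2 in GFP and, without scaling, MTH1 in GFP. HXT7 in MTS-GFP and HXT2 in GFPm3 were gained under all 4, HXT1 in MTS-GFP with quantile and loess, HXT3 in MTS-GFP with loess, and HXT5 in GFP and MTH1 in GFPm3 without scaling. Leaving the arrays unscaled shifted the median of all genes by -0.29 in GFP to 0.30 in NES-GFP.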

Other observations

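The transporter genes lie in clusters, and the gene between neighbours was looked up by position and is named after its values were seen. AHT1, a gene name annotated between HXT4 and HXT1 on chromosome VIII, deviated from the mean of the 7 arrays by -1.16 in NES-GFP, -0.91 in MTS-GFP, 0.85 in SS-GFP, -1.29 in GFPm3, 1.77 in GFP-Deg and 1.18 in GFP, and by -0.44 in the empty vector. It was thus high in the 3 arrays of the second slide, low in the 4 of the first, and highest in GFP-Deg, where HXT4 was lower than in every strain but GFPm3. YDR344C, between HXT6 and HXT3 on chromosome IV, deviated by -0.34 in NES-GFP, -0.57 in MTS-GFP, 0.20 in SS-GFP, -0.53 in GFPm3, 0.50 in GFP-Deg and 0.79 in GFP, and by -0.04 in the empty vector. It lay highest in GFP, while HXT6 and HXT3 on either side lay highest in MTS-GFP. The 3 values of YDR344C on the second slide also lay above the 4 on the first, so strain and slide cannot be told apart. Of all genes, 27.9% did not overlap between slides in either direction.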
